A study of Rattus norvegicus with 22 samples.

Results

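The uroplakins Upk1a, Upk1b, Upk2 and Upk3a, the keratins Krt5 and Krt15, and the genes Sptssb, Psca, Tp63 and Anxa8 are genes of the urothelium, and their levels were read in the kidneys of 22 polycystic rats. These 10 genes, of 17334 in the gene tables, were listed because earlier results of these same data had shown them higher after intravenous cells, so their levels in that comparison are a description, and calls from the fits over all genes are no support for them. All 22 rats were male PKD/Mhm (Cy/+) animals, a strain in which a missense mutation of SamCystin (Anks6) gives polycystic kidneys, and carriers of a single mutant copy were picked by palpation of the abdomen. The kidneys were taken at 8 months of age. Of the rats, 6 were untreated (Untreated), 6 received human adipose-derived stromal cells by intraperitoneal injection (i.p. ASC), 6 received the same cells by intravenous injection (i.v. ASC) and 4 received the medium conditioned by these cells (ASC-derived CM), each given monthly for 6 months. The route of the conditioned medium differs between the descriptions of the study and was not used here. Rats are named by the animal numbers of their labels. Further rats of the study, among them all that received ABCB5+ cells, were not analysed here.

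The urothelium lines the renal pelvis, the ureter and the bladder, and a thin sheet of related epithelium covers the renal papilla, so that a kidney holds little of it. Its superficial umbrella cells cover their luminal face with rigid plaques of uroplakins, in which Upk1a pairs with Upk2 and Upk1b pairs with Upk3a, and these plaques keep urine out of the tissue. Its basal cells rest on the basement membrane, express keratins such as Krt5 and Krt15, and depend on the transcription factor Tp63.

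RNA of the whole left kidney was sequenced, and each rat had between 12195682 and 14734772 estimated counts. Levels are given as TPM, which is scaled by transcript length and by the total of the rat and can be compared between genes, or as CPM, the count scaled by the library total and TMM factors, which compares a gene between rats. Genes of the nephron were present in every kidney, with Umod, the uromodulin of the thick ascending limb, at 847 to 4445 TPM and Slc34a1, the phosphate transporter of the proximal tubule, at 227 to 1405 TPM. In a whole kidney, fewer cells of a type and less RNA per cell cannot be told apart.

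The promoters of the 4 members with the clearest roles, 3 plaque proteins and 1 basal keratin, are printed first, to show the sequence next to the starts of genes of both layers of the urothelium. Of the 10 genes, 7 had a promoter in the RefSeq table of the rat assembly GRCr8, and Upk2, Krt15 and Psca are named only. Each sequence runs 5′ to 3′ on the strand of the gene, from 250 bases before the annotated start to 50 bases after it. Upk1a lies at chr1:94997531-94997830 on the minus strand, Upk1b at chr11:75459131-75459430 on the plus strand, Upk3a at chr7:118014540-118014839 on the plus strand and Krt5 at chr7:134730520-134730819 on the minus strand. Capitals mark a match to the grainyhead-like motif AACCNGTT, the motif of the family of the urothelial factor Grhl3.
Upk1a: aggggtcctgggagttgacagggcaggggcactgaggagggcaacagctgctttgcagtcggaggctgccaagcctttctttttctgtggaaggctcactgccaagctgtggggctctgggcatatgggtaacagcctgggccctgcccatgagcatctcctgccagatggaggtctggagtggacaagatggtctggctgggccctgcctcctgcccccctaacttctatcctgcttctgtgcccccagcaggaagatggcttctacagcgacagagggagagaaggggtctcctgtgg
Upk1b: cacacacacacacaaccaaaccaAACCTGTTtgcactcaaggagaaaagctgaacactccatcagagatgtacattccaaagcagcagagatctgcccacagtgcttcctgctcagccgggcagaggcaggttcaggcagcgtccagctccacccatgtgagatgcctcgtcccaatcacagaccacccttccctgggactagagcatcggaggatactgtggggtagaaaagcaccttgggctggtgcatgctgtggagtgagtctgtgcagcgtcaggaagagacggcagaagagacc
Upk3a: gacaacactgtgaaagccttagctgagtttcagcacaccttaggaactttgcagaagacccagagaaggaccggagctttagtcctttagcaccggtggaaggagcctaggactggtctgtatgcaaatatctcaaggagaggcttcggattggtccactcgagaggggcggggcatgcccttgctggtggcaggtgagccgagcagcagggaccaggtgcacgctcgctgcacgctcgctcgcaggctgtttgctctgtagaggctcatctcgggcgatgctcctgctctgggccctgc
Krt5: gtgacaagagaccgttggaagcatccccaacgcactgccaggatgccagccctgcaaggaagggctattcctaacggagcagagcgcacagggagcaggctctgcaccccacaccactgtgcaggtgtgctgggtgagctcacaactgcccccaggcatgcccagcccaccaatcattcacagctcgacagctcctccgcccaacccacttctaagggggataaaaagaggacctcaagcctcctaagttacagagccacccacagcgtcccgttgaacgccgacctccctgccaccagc

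Among these 7 promoters the grainyhead-like motif was found, on either strand, only in that of Upk1b, as AACCTGTT with its first base at position -227 from the start, and 2.10% of 33469 promoters of the same length hold it. The KLF motif GGGTGNGG was found in the promoters of Sptssb and Anxa8 (15.3% of all promoters) and the GATA motif AGATAA in that of Sptssb (11.6%). None of the 7 held the AP-1 motif TGANTCA (7.33% of all), the TATA box TATAAA (14.2%), the ETS motif AGGAAGT (8.41%) or the nuclear receptor motif AGGTCA (16.2%). None of these motifs was shared by more than 2 of the 7 promoters. These letters were searched in the printed window only.

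Upk1a, a tetraspanin of the plaque, was the most abundant uroplakin in rats 3, 9, 10 and 13 of the i.v. ASC group. In i.v. ASC rats 3, 9 and 13 it stood at 132, 189 and 64.4 TPM, in rat 10 at 9.11 TPM, and in rats 8 and 14 at 0.820 and 0.321 TPM. The untreated rats ranged from 0.459 to 6.90 TPM with a median of 0.865 TPM, the i.p. ASC rats from 0.694 to 6.29 TPM with a median of 1.10 TPM, and the 4 ASC-derived CM rats stood at 2.05, 2.81, 1.08 and 0.918 TPM. Rats 3, 9, 13 and 10 of the i.v. ASC group thus lay above all 16 rats of the other groups, and rats 8 and 14 lay among or below them. The group means were 65.9 ± 79.0 TPM (SD, n = 6) in i.v. ASC rats and 2.06 ± 2.52 TPM (SD, n = 6) in untreated rats, and the SD of the i.v. ASC group exceeded its mean. In rat 9, Upk1a lay at the 93.3rd percentile of the 12867 genes tested, and in rat 14 at the 1.45th percentile.

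Upk2, the partner of Upk1a, was absent or almost absent from most kidneys outside the i.v. ASC group. It had 0 counts in 11 of the 16 rats of the other groups, where a count of 0 allows up to 3 counts. Rats 3, 9 and 13 stood at 80.6, 133 and 20.1 TPM, rat 10 at 4.70 TPM and rats 8 and 14 at 0.170 and 0.172 TPM, the last pair with 1 count each. The untreated median was 0 TPM and the untreated highest value was 2.53 TPM, in rat 23, and the i.p. ASC highest value was 2.06 TPM, in rat 7. Upk2 and its partner therefore put the same rats at the top, rats 9, 3, 13 and 10 in this order.

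Upk1b, the second tetraspanin, had the smallest fitted difference among the uroplakins, and every kidney held some of it. It ranged from 0.255 to 1.60 TPM over the 16 rats outside the i.v. ASC group, with no rat at 0 counts. It stood at 31.0, 46.9 and 9.43 TPM in rats 3, 9 and 13, at 2.68 TPM in rat 10, and at 1.22 and 1.29 TPM in rats 8 and 14, which lay within the range of the other groups. Upk3a, the partner of Upk1b, stood at 68.3, 130 and 22.3 TPM in rats 3, 9 and 13, at 3.35 TPM in rat 10 and at 0.260 TPM in rats 8 and 14 alike. Its untreated rats ranged from 0 to 3.30 TPM with a median of 0.139 TPM, the i.p. ASC rats from 0 to 0.478 TPM with a median of 0.302 TPM, and the ASC-derived CM rats from 0.138 to 0.477 TPM. For Upk3a, untreated rat 23, at 3.30 TPM with 26 counts, was next to i.v. ASC rat 10 with 33 counts, while no other rat outside the i.v. ASC group passed 0.478 TPM.

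The basal keratins marked the same kidneys. Krt15, a keratin of basal and stem-like epithelial cells, stood at 62.4, 106 and 68.1 TPM in rats 3, 9 and 13, at 7.04 TPM in rat 10 and at 0.333 and 0.147 TPM in rats 8 and 14. The untreated rats had a median of 0.184 TPM and a highest value of 1.22 TPM, and the i.p. ASC rats a median of 0.175 TPM and a highest value of 4.32 TPM, in rat 7. Krt5, a keratin of the basal cells of stratified epithelia, stood at 10.95, 42.7 and 8.39 TPM in rats 3, 9 and 13, at 3.24 TPM in rat 10 and at 0.465 and 0.337 TPM in rats 8 and 14. Its values outside the group ran from 0 to 2.06 TPM, with untreated rat 23 highest and the next rat at 0.612 TPM. The i.p. ASC rat 7, which held 64 counts of Krt15, held 1 count of Krt5, so the basal keratins did not go together in every kidney.

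Tp63, the transcription factor of basal cells, had the lowest level of the members in each of rats 3, 9 and 13. It stood at 2.55, 5.37 and 2.27 TPM in rats 3, 9 and 13, at 0.467 TPM in rat 10 and at 0.172 and 0.328 TPM in rats 8 and 14, against 0.0869 to 0.388 TPM over the 16 rats of the other groups. Anxa8, an annexin that binds phospholipids in the presence of calcium, stood at 9.06, 20.7 and 7.28 TPM in rats 3, 9 and 13, and at 0.517, 0.117 and 0.328 TPM in rats 10, 8 and 14. For Anxa8, untreated rat 23 at 0.645 TPM was above rat 10, so that only rats 3, 9 and 13 lay above all 16 others.

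Sptssb, a small subunit of serine palmitoyltransferase, the enzyme that starts sphingolipid synthesis, had lower TPM than each uroplakin in rats 3, 9 and 13. It stood at 17.3, 33.3 and 5.35 TPM in rats 3, 9 and 13, at 0.580 TPM in rat 10 and at 0.194 and 0.0552 TPM in rats 8 and 14. The 16 other rats ranged from 0 to 0.488 TPM, and 4 of them had 0 counts. Psca, a GPI-anchored surface protein of prostate and urothelium, was the one member with a clear level in all kidneys. It ranged from 4.86 to 23.6 TPM over the 16 rats outside the i.v. ASC group, with medians of 12.3 TPM in untreated, 8.995 TPM in i.p. ASC and 14.8 TPM in ASC-derived CM rats. In rats 3, 9 and 13 it stood at 46.9, 87.5 and 118 TPM, and in rats 10, 8 and 14 at 16.3, 14.04 and 15.1 TPM, within the range of the other groups. Rat 13, and not rat 9, was the highest rat for Psca.

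**Figure D1:**
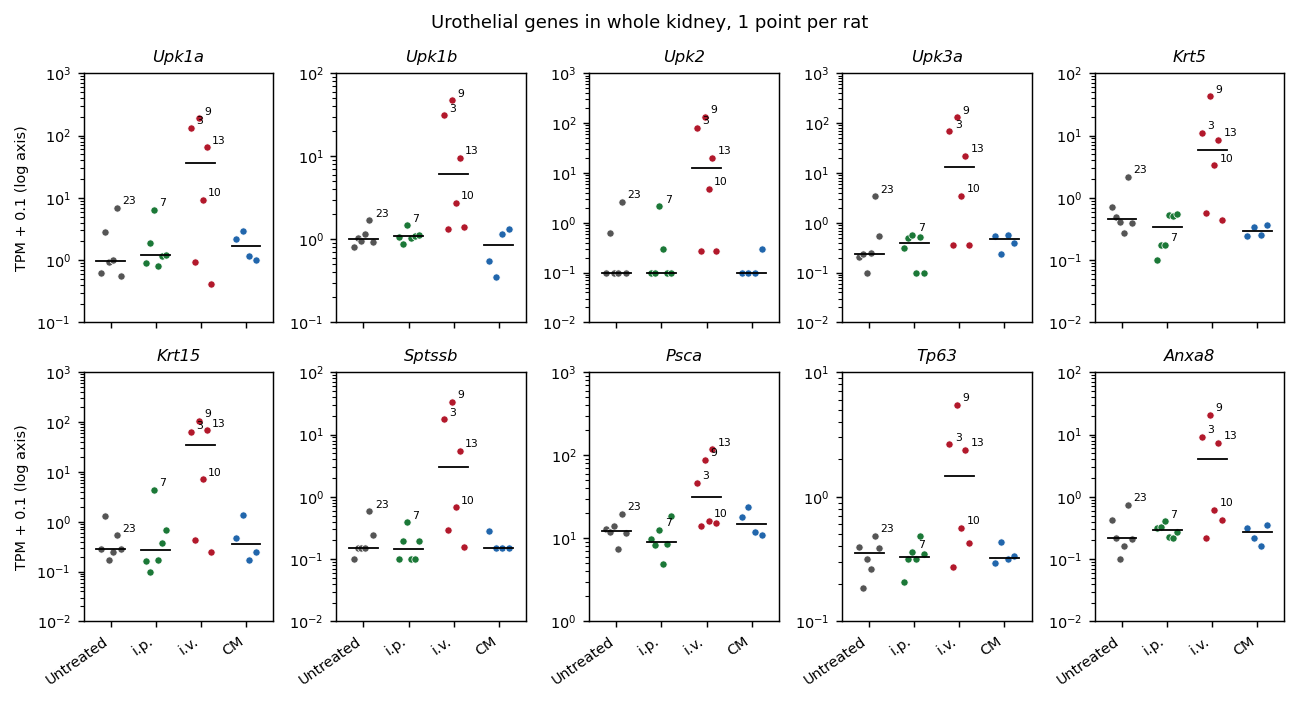
TPM + 0.1 on a log axis (vertical) for each of the 10 urothelial genes, by group (horizontal: 6 Untreated, 6 i.p. ASC, 6 i.v. ASC and 4 ASC-derived CM rats), with 1 point per rat, a line at the group median and rat numbers beside 6 kidneys. Rats 3, 9 and 13 are the 3 highest points in every panel, while Psca alone has all points above 4 TPM.

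Over the 10 genes, i.v. ASC rats 3, 9 and 13 were the 3 highest of the 22 rats for every member, which holds for 0.443% of all genes tested (57 of 12867). At least 4 i.v. ASC rats lay above all 16 rats of the other groups for 8 members, all but Psca and Anxa8, against 0.21% of all genes tested. These counts are set by the choice of the members and are given as a description. Rat 9 was the highest rat for 9 members and rat 13 for Psca, rat 3 was second for 8 members, and rat 10 was the fourth rat for 8 members. Rats 8 and 14 exceeded the 16 other rats for none of the 10. The treatment was the same for these 6 rats, and their levels of Upk2 spanned 0.170 to 133 TPM.

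**Figure D2:**
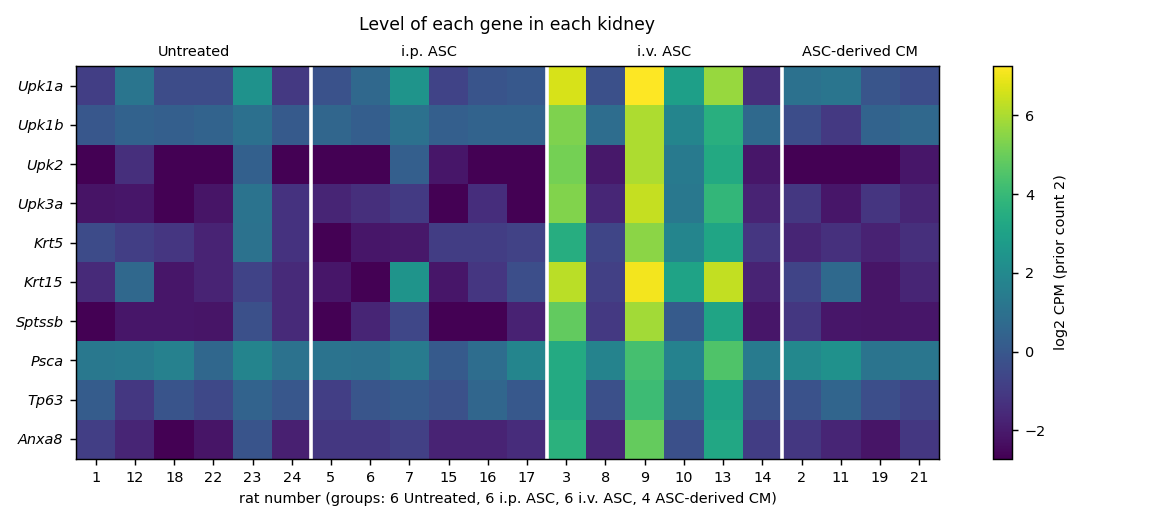
Colour gives log2 CPM (prior count 2) of each of the 10 genes (rows) in each of the 22 rats (columns, by group and animal number, white lines between groups). The columns of i.v. ASC rats 3, 9 and 13 are bright in every row, rat 10 is intermediate, and rats 8 and 14 resemble the untreated columns.

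The kidneys outside these rats were not uniform. The summed TPM of the 10 genes was 795 TPM in i.v. ASC rat 9, 461 TPM in rat 3, 326 TPM in rat 13 and 47.9 TPM in rat 10. It was 38.1 TPM in untreated rat 23, 28.8 TPM in ASC-derived CM rat 11 and 28.0 TPM in i.p. ASC rat 7, and the lowest of the 22 rats stood at 7.55 TPM. In rat 11 of the ASC-derived CM group, 81.9% of the sum was Psca, whereas in untreated rat 23 and i.p. ASC rat 7 the uroplakins made up 37.7% and 36.5%. By TPM, untreated rat 23 was the highest of the 16 rats outside the i.v. ASC group for 8 members, all but Krt15 and Psca, and i.p. ASC rat 7 was the highest for Krt15. By CPM, i.p. ASC rat 7 was above untreated rat 23 for Upk1a (5.36 against 4.97 CPM) and Upk1b (1.84 against 1.81 CPM), and i.p. ASC rat 16 was above it for Tp63 (1.36 against 1.20 CPM). A lesser urothelial signal was therefore also present in single kidneys of rats that received no cells or received them by the other route.

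The mix of urothelial transcripts differed between the kidneys that held most of them. Uroplakins made up 67.6% of the summed TPM in rat 3 and 62.8% in rat 9, but 35.7% in rat 13. The basal genes Krt5, Krt15 and Tp63 made up 16.5%, 19.4% and 24.2%, and Psca made up 10.2%, 11% and 36.3% in rats 3, 9 and 13. Rat 13 thus had a lower share of uroplakin transcripts and a higher share of Psca than rats 3 and 9. Its summed uroplakins, at 116 TPM, were still above the 19.8 TPM of rat 10. Intervals below are 95% exact intervals for the ratio of counts, scaled to TPM, and cover counting error only.

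The ratio of Upk2 to Upk1a was 0.610 (0.547 to 0.681) in rat 3, 0.707 (0.650 to 0.769) in rat 9 and 0.312 (0.256 to 0.378) in rat 13. The ratio of Upk1b to Upk1a was 0.235 (0.211 to 0.261), 0.249 (0.229 to 0.270) and 0.147 (0.122 to 0.175) in the same order. The ratio of Upk3a to Upk1b, the other pair, was 2.20 (1.94 to 2.497), 2.77 (2.52 to 3.05) and 2.36 (1.89 to 2.95). The interval of rat 13 overlapped with those of both other rats, but the intervals of rats 3 and 9 did not overlap. Relative to Upk1a, then, rat 13 held less of Upk2 and Upk1b than rats 3 and 9 beyond counting error. The ratio of Upk3a to Upk1b did not set rat 13 apart in this way. Among basal genes, the ratio of Krt5 to Krt15 was 0.176 (0.146 to 0.210) in rat 3, 0.402 (0.365 to 0.443) in rat 9 and 0.123 (0.10 to 0.150) in rat 13. The ratio of Krt15 to Upk1a, basal against superficial, was 0.473 (0.434 to 0.515), 0.563 (0.527 to 0.602) and 1.06 (0.958 to 1.17). The ratio of Psca to Upk1a was 0.355 (0.294 to 0.427), 0.464 (0.404 to 0.530) and 1.84 (1.59 to 2.11).

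In the kidneys with a lesser signal the same ratios were less precise. In i.v. ASC rat 10, Upk2 to Upk1a was 0.516 (0.342 to 0.762) and Krt15 to Upk1a was 0.773 (0.592 to 1.01). In untreated rat 23, Krt15 to Upk1a was 0.0627 (0.0222 to 0.144), and in i.p. ASC rat 7 it was 0.688 (0.479 to 0.988). Untreated rat 23 thus held uroplakins with little Krt15, while i.p. ASC rat 7 held Krt15 with little Krt5 and Upk3a. In i.p. ASC rat 7, Upk3a to Upk1b was 0.347 (0.0870 to 1.02) from 4 and 22 counts, below the intervals of rats 3, 9 and 13.

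**Figure D3:**
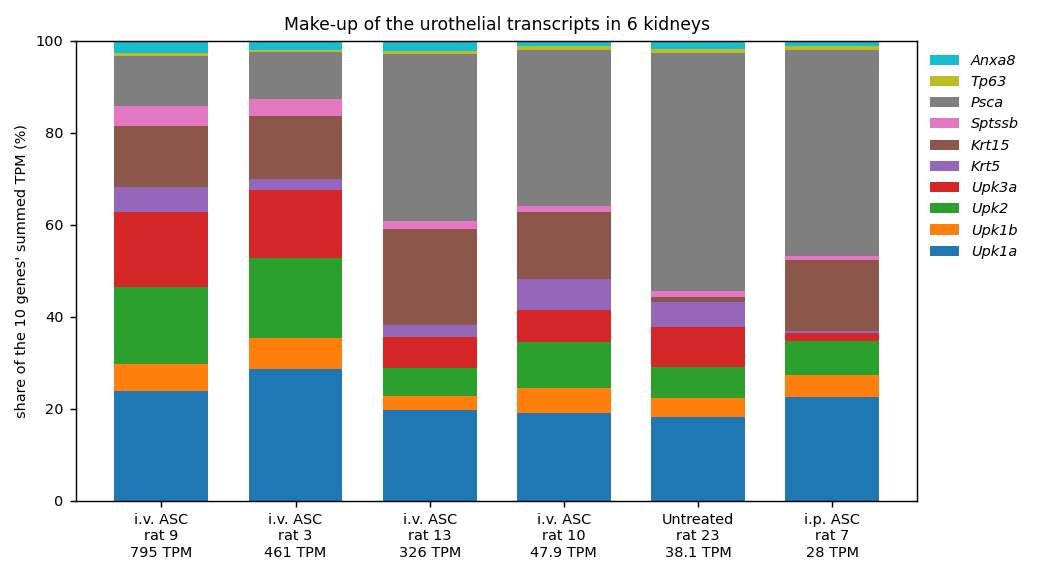
Share of each gene in the summed TPM of the 10 genes (vertical, percent) for the 4 i.v. ASC rats and the 2 other rats with the highest member scores (horizontal, with the summed TPM under each bar). Uroplakins fill over 60% of the bars of rats 9 and 3 and 35.7% of that of rat 13. Psca is the largest single gene in rats 13, 10, 23 and 7, and its share is highest in untreated rat 23, at 51.8%.

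The fitted differences on the count scale carried this spread. In edgeR's quasi-likelihood fit over all 22 rats, the log2 fold changes of i.v. ASC against untreated rats ran from 2.11 for Psca to 6.90 for Krt15 with a median of 5.10, against a median of -0.01 over all genes tested. Krt15 was at 49.4 CPM on average in i.v. ASC and 0.416 CPM in untreated rats, a log2 fold change of 6.90 ± 1.34 (SE). Sptssb differed by 6.40 ± 1.23 (SE), Upk2 by 6.36 ± 1.33 (SE), Upk3a by 5.82 ± 1.19 (SE) and Upk1a by 5.14 ± 1.10 (SE) on the log2 scale. The differences of Anxa8, Krt5, Upk1b and Tp63 were 5.06, 4.26, 4.12 and 3.01 on the log2 scale. All 10 members passed the filter on low counts, but Sptssb reached the required 0.774 CPM in 4 i.v. ASC rats only, and Upk3a, Krt5 and Anxa8 reached it in a single rat outside that group.

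No gene of the whole table was called by edgeR at an adjusted p-value of 0.05 in this comparison, so 0 of the 10 members and 0% of all genes were called, with 1133 genes under an unadjusted p of 0.05. DESeq2, the tool named in the study's methods, called 28 genes, 0.183% of 15289, of which 24 were higher after i.v. ASC (0.157%). Of the 10 members, 9 were among the 24, all but Upk2. Since the members were chosen on this contrast, nothing is read from this count. Without rat 8 or without rat 14, the i.v. ASC rats that resembled the untreated rats, edgeR called 11 and 14 genes, 9 of them members in both cases. Rats 8 and 14 are the i.v. ASC rats with low member levels, so nothing is read from these counts either. Without rats 3, 9 and 13, neither tool called a gene.

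With these 3 rats left out, the remaining i.v. ASC rats 8, 10 and 14 differed less from the untreated rats. The log2 fold changes of the 6 members that still passed the filter were 2.87 for Krt15, 1.96 for Upk2, 0.94 for Upk1a, 0.90 for Upk1b, 0.34 for Tp63 and 0.32 for Psca. Upk3a, Krt5, Sptssb and Anxa8 no longer passed the filter and averaged 0.856, 1.38, 0.454 and 0.410 CPM in these rats.

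The other treatments gave smaller median differences over the members than i.v. ASC. After i.p. ASC, the members' log2 fold changes ran from -1.33 for Krt5 to 1.36 for Krt15 with a median of -0.09, the median over all genes being -0.01, and 0 of 10 members and 0% of all genes were called, with 500 genes under an unadjusted p of 0.05. The Krt15 value rested on rat 7, without which it was -0.79. After ASC-derived CM, the range was -2.99 for Upk2 to 0.41 for Psca with a median of -0.30, and again 0 of 10 members and 0% of all genes were called by edgeR, with 849 genes under an unadjusted p of 0.05. The Upk2 value, with an SE of 3.27, rested on 1 count over the ASC-derived CM rats and 18 over the untreated rats, 15 of them in rat 23. Without untreated rat 23 it was -0.87. The 3 comparisons share the untreated rats. Untreated rat 23 set much of the untreated mean, and without it Upk3a moved from -1.31 to 0.59 after i.p. ASC and from -0.89 to 1.02 after ASC-derived CM on the log2 scale. By DESeq2, no gene was called after i.p. ASC and 4 genes, 0.0262%, after ASC-derived CM, of which 2 were higher (0.0131%) and none was a member.

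**Figure D4:**
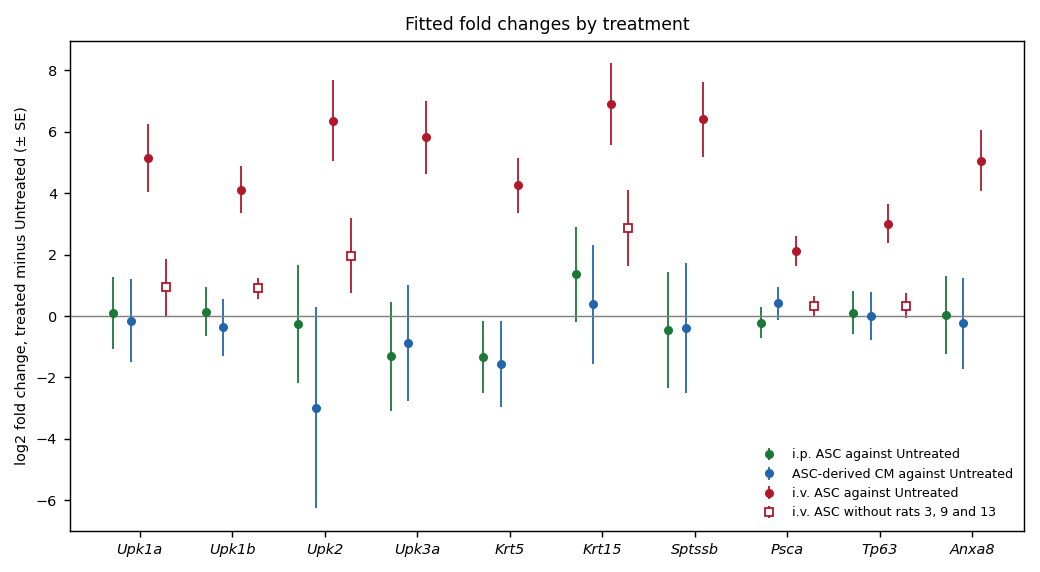
Log2 fold change (vertical, treated minus Untreated, points, with bars of ± SE) from edgeR for the 10 genes (horizontal) in each comparison. Filled red points are all 6 i.v. ASC rats, from 2.11 to 6.90, and open squares are the i.v. ASC group without rats 3, 9 and 13, from 0.32 to 2.87, for the 6 genes that could be fitted.

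The members varied together over the rats. Spearman correlations of the 45 pairs ran from 0.28 to 0.82 with a median of 0.61 over 22 rats, a description that the 3 highest rats dominate. Over the 16 rats outside the i.v. ASC group, the median was 0.28 and 38 of 45 pairs were above 0. There the highest was that of Krt15 with Psca at 0.66 and the lowest that of Upk3a with Krt5 at -0.36. All these points share low counts, so weak values are not read further.

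Other genes of the urothelium were looked at in lists of known markers, and each list was set against the 0.443% of genes for which rats 3, 9 and 13 were the 3 highest. Among the further plaque and umbrella cell genes, Slc14a1, the urea transporter UT-B, had this pattern. Slc14a1 stood at 12.4, 19.5 and 19.1 TPM in rats 3, 9 and 13 against 1.24 to 8.60 TPM in the 19 other rats. Krt20, the keratin of fully differentiated umbrella cells, was not tested for its low counts and stood at 1.03, 3.57 and 0.179 TPM against 0 to 0.50 TPM. Rat 13, with its lower share of uroplakin transcripts, was thus within the other rats for Krt20. Cldn4, the list's gene least like the members, is a claudin of the collecting duct too and stood at 147, 215 and 254 TPM against 133 to 231 TPM.

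Of 8 urothelial transcription factors, 4 had rats 3, 9 and 13 highest, namely Grhl3, Foxa1, Pparg and Klf5. Grhl3, a grainyhead-like factor of umbrella cell differentiation, stood at 3.68, 5.93 and 1.86 TPM in rats 3, 9 and 13 against 0.0469 to 0.863 TPM in the 19 others. Pparg, the nuclear receptor that drives urothelial differentiation, stood at 6.53, 11.1 and 5.02 TPM against 0.897 to 2.53 TPM. DESeq2 called it after i.v. ASC with an adjusted p of 0.00351, and edgeR did not (adjusted p 0.169, log2 scale 1.92). Pparg was named after its values were seen, so nothing is read from this call. Gata3, also a factor of the collecting duct, was least like the members, at 66.0, 89.1 and 83.7 TPM against 43.2 to 95.4 TPM. The median log2 fold change of the 8 factors after i.v. ASC was 0.56, against -0.01 over all genes, and edgeR called none of them.

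Among 5 other epithelial keratins tested none had rats 3, 9 and 13 highest. Krt19 was the one most like the members, at 226, 343 and 404 TPM against 96.1 to 307 TPM, and Krt8, a keratin of simple epithelia, the least, at 358, 358 and 388 TPM against 262 to 460 TPM. Krt14, a basal keratin with too few counts for the edgeR filter, stood at 3.76, 7.98 and 7.41 TPM in rats 3, 9 and 13 against 0 to 0.732 TPM. DESeq2 called it with an adjusted p of 0.00112, but Krt14 too was named after its values were seen, so nothing is read from this. Of the 9 basal cell adhesion genes tested none had the 3 rats highest. Lamb3, a laminin chain, was the most like the members, at 7.09, 19.3 and 18.6 TPM against 4.86 to 15.1 TPM, and Itga6, an integrin chain found on many kidney cells, the least, at 42.7, 34.7 and 31.0 TPM against 31.9 to 56.4 TPM. Shh, the signalling protein that basal urothelial cells secrete, was on this list but not tested, and it stood at 3.69, 7.43 and 2.22 TPM against 0 to 0.624 TPM.

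Of the enzyme that Sptssb belongs to, the 4 other parts tested did not have rats 3, 9 and 13 highest. Sptlc1 and Sptlc2, its catalytic chains, stood at 39.7, 40.7 and 48.8 TPM and at 42.6, 45.6 and 45.9 TPM in rats 3, 9 and 13, against 38.2 to 47.3 TPM and 39.4 to 68.7 TPM in the others. Sptssa, the other small subunit, was at 64.9, 67.1 and 64.4 TPM against 52.7 to 73.0 TPM. Sptlc3, an alternative catalytic chain not tested for its low counts, had these rats highest and was the list's gene most like the members, at 0.699, 0.269 and 0.338 TPM against 0 to 0.224 TPM. None of the 4 genes tested was called in any comparison by either tool.

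Over all genes tested, the non-members whose levels were most like the mean of the 10 over 22 rats were Slc14a1 (Spearman 0.76), Plet1 (0.76), Trim29 (0.75), Vash2 (0.70), Sprr1a (0.70), Ankrd22 (0.69), Prss35 (0.68), Grhl3 (0.67), Sdc1 (0.66) and Fxyd4 (0.65). From the 5th to the 95th percentile, all genes ran from -0.46 to 0.44. Sprr1a, a cornified envelope precursor of stratified epithelia, followed the uroplakins rather than Psca, at 53.4, 88.5 and 9.32 TPM in rats 3, 9 and 13, with 12 of the other 19 rats at 0. Sdc1, a syndecan of epithelial surfaces, stood at 37.0, 67.1 and 49.97 TPM against 13.4 to 25.6 TPM. Fxyd4, a regulator of the sodium pump in the collecting duct, stood at 52.1, 198 and 124 TPM against 25.3 to 68.7 TPM, so only rats 9 and 13 lay above the others.

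Genes of neighbouring tissues moved with the members in some of the kidneys. Slc14a2, the urea transporter of the inner medullary collecting duct, was at 29.6 and 20.4 TPM in rats 9 and 13 and at 0.851 TPM in rat 3, and it also reached 20.4 TPM in ASC-derived CM rat 11 and 8.56 TPM in i.p. ASC rat 17, rats without raised uroplakins. DESeq2 called Slc14a2 after i.v. ASC with an adjusted p of 0.00405, and edgeR did not (adjusted p 0.521). The marker lists were chosen with earlier results of these data known, so nothing is read from this call. Among 6 collecting duct genes, Aqp3 was most like the members, at 190, 448 and 348 TPM against 85.6 to 243 TPM, and the sodium channel subunit Scnn1b least, at 95.2, 149 and 106 TPM against 70.2 to 163 TPM. None of the 5 inner medulla and 6 collecting duct genes had all 3 rats highest, and the inner medulla gene least like the members was Slc6a6, a taurine transporter, at 27.2, 20.9 and 22.7 TPM against 16.8 to 45.5 TPM. Rats 9 and 13 thus had high urothelial transcripts together with high Aqp3 and Slc14a2. Not every collecting duct gene was raised in them, as their Scnn1b lay within the range of the other rats. In rat 3, which also had high urothelial transcripts, Aqp3, Slc14a2 and Scnn1b all lay within that range.

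Smooth muscle lies under the urothelium of the pelvis, and its genes showed another split. Actg2, the actin of visceral smooth muscle, stood at 43.7 TPM in rat 3 and 12.7 TPM in rat 10 but at 4.52 and 0.967 TPM in rats 9 and 13, and ASC-derived CM rat 19, with no raised uroplakin, had 21.96 TPM. The summed TPM of 8 smooth muscle genes ranged from 357 to 922 TPM in i.v. ASC rats and from 608 to 1024 TPM in untreated rats. Synpo2 was the list's gene most like the members, at 4.73, 2.91 and 4.65 TPM against 2.06 to 9.62 TPM, and Acta2, at 221, 57.4 and 76.5 TPM against 73.2 to 405 TPM, and Myh11 were the least. No smooth muscle gene had the 3 rats highest.

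Genes of the glomerulus were low in the same kidneys. Nphs1 and Wt1, which mark podocytes (Wt1 also marks mesothelium), were lowest in the same 5 rats, i.v. ASC rats 3, 9 and 13 and ASC-derived CM rats 2 and 11. This was noticed after the values were seen. Nphs1 ran from 9.27 to 13.7 TPM in these 5 rats and from 16.7 to 39.8 TPM in the 17 others, and Wt1 from 0.70 to 1.87 TPM against 3.56 to 15.7 TPM. The pair of ASC-derived CM rats had summed uroplakins of 2.94 and 3.20 TPM, so low podocyte genes went without raised uroplakins there. Among the nephron genes, Umod was the one most like the members. The part that these tissues had in the levels of the members was not tested.

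**Figure D5:**
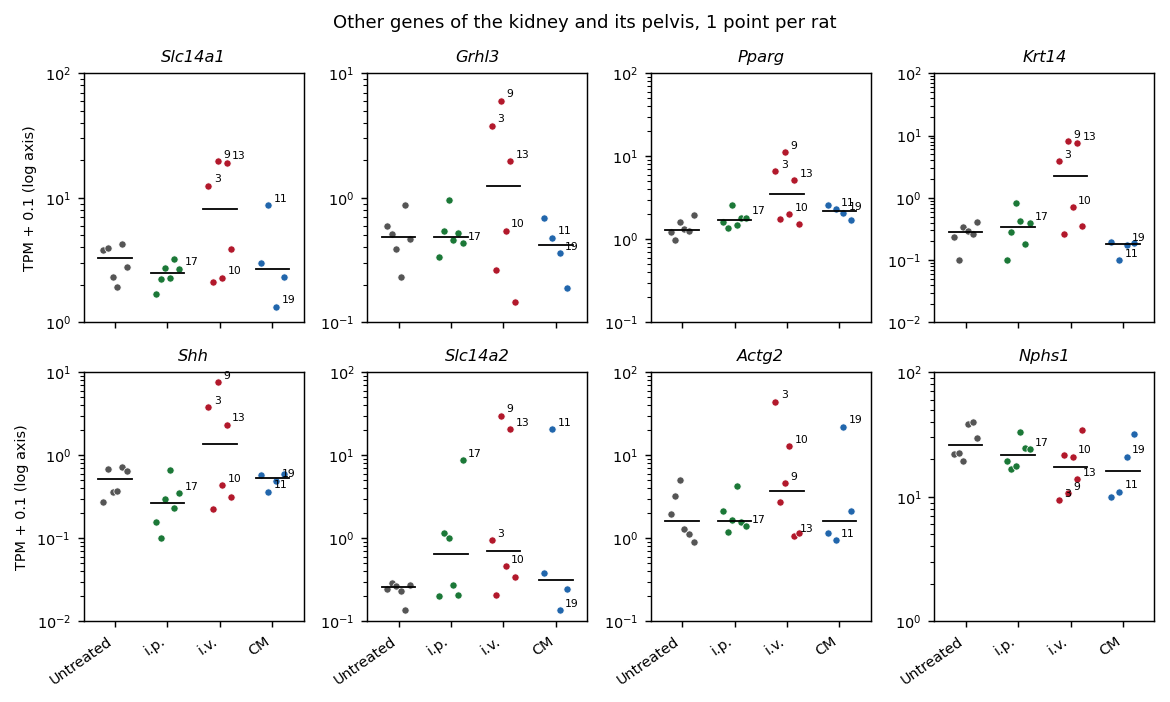
TPM + 0.1 on a log axis (vertical) by group (horizontal) for 5 genes of the urothelium (Slc14a1, Grhl3, Pparg, Krt14 and Shh), Slc14a2 of the inner medulla, Actg2 of smooth muscle and Nphs1 of podocytes, with 1 point per rat, a line at the group median and the numbers of 7 rats. Rats 3, 9 and 13 are the highest for the first 5 genes, rats 9, 13 and 11 for Slc14a2, rats 3, 19 and 10 for Actg2, and rats 3, 9 and 13 are near the bottom for Nphs1.

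Among listed genes of squamous, fat, mesothelial and injured tubular cells, none of those tested had rats 3, 9 and 13 highest, but only 1 squamous gene, Krt10, had enough counts to be tested. Krt4, a keratin of wet squamous epithelia, was not tested and was the squamous gene most like the members, at 1.54, 0.937 and 0.350 TPM against 0 to 0.418 TPM, and Krt10 of cornified epithelia the least, at 7.21, 7.23 and 6.66 TPM against 5.35 to 9.49 TPM. Among mesothelial genes Msln stood at 17.04, 23.2 and 53.9 TPM against 10.5 to 26.7 TPM. Of the adipocyte genes, Adipoq was most like the members, at 20.3, 29.4 and 30.0 TPM against 17.3 to 39.6 TPM, and Cfd the least. Of the injury genes, Lcn2 was the most like them, at 204, 391 and 294 TPM against 175 to 890 TPM, and Vcam1 the least, at 10.8, 21.3 and 38.4 TPM against 16.2 to 49.5 TPM. The kidneys with the highest uroplakins were therefore not those with the highest injury genes.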

How the data were processed

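Total RNA of the left kidney of 22 rats was sequenced by the authors on a BGISEQ-500. Per the labels, the submitters' processing notes name Trim Galore 0.6.4, kallisto 0.4.6 and rn6, while the paper's methods name a human transcript package. The authors deposited, per rat Entrez gene, estimated counts without normalization (14.1% of values not whole, rounded here) and TPM values scaled by the authors for transcript length, which sum to 959754 to 968550 per rat. Of 17334 genes, 17179 were matched to symbols of the RefSeq table for GRCr8, used for names, and GRCr8 promoters were used for sequences. How reads shared by paralogous keratins were split is not given in the sources used here.

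Groups and animal numbers came from the labels. edgeR 4.0.16 (R 4.3.3, TMM, filterByExpr, quasi-likelihood F test, Benjamini-Hochberg over 12867 genes, threshold 0.05) was fitted to all 4 groups without a covariate. Log2 CPM used a prior count of 2. The member score is the mean z-score of the log2 CPM of the 10 genes over 22 rats. The members and marker lists were chosen with earlier results of these data known. Named were every member, of each list the genes most and least like the score by Spearman correlation, and the 10 most alike non-members. Genes outside this rule (Slc14a1, Krt20, Foxa1, Pparg, Klf5, Krt14, Shh, Sptlc1, Sptssa, Actg2, Nphs1) were named after their values were seen. Upk3b, Snx31, Krt6a, Krt7, Dst, Lama3, Sfn, Lor, Lrrn4 and Muc16 were listed but not analysed here, and some listed genes are not reported here. Intervals on counts are exact and cover counting error only. No pair of rats of a group agreed within sampling noise (chi-square per gene from 7.38 to 142.5). Each sample is a separate rat.

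As alternatives, RLE size factors, DESeq2 1.42.0, a fit of only 2 groups, at least 10 counts in every rat, no filter, limma-trend (limma 3.58.1) on log2(TPM + 1) and log2(TPM + 0.1), a prior count of 0.5 and the omission of each rat were tried. Added after the data were seen were the fits without i.v. ASC rats 3, 9 and 13, DESeq2 with each rat left out and DESeq2 without the Cook's distance filter. edgeR and DESeq2 were tested on simulated counts of i.v. ASC against untreated rats with 200 genes changed 4-fold. edgeR recovered 196 and called 11 of 12606 unchanged genes, and DESeq2 recovered 196 and called 31 of 12667. Recovery of genes raised in only some rats of a group, as the members were, was not tested.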

Additional observations from a re-analysis of the deposited data

Results flagged for a closer look

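Of 44 groups of values examined, 4 held a rat whose gap to the nearest other rat was large relative to the range of its group. Chance gives about 1 in 20 for continuous values. Several of these groups held counts near 0, for which that rate need not hold, so 4 of 44 is not set against it. Upk2 in i.p. ASC rat 7 was at 0.31 log2 CPM, with 13 counts, against -2.71 to -2.13 in the other i.p. ASC rats. Upk2 in ASC-derived CM rat 21 was at -2.11 log2 CPM, with 1 count, against -2.71 in the others, which had 0 counts. Sptssb in ASC-derived CM rat 2 was at -1.09 log2 CPM, with 4 counts, against -2.16 to -2.10. The mean z-score of the 10 genes in untreated rat 23 was 0.26, against -0.65 to -0.36 in the other untreated rats. Rats 3, 9 and 13 were not among these, since 3 high rats of 6 leave no single rat apart from its group.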

How the results depend on the processing

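edgeR called 0 genes in each comparison, and so it did with RLE size factors, no filter, at least 10 counts in every rat and both limma-trend fits, while the fit of only 2 groups called 1 gene after ASC-derived CM, not a member. DESeq2 called 28 genes after i.v. ASC (34 without the Cook's distance filter) and 4 after ASC-derived CM. With each rat left out, edgeR called 0 to 14 genes after i.v. ASC, 14 without i.v. ASC rat 14, 11 without rat 8 and 0 without any other, and 0 in the other comparisons. DESeq2 then called 24, 35, 28, 14, 22 and 18 genes without untreated rats 1, 12, 18, 22, 23 and 24, and 21, 57, 7, 49, 15 and 100 without i.v. ASC rats 3, 8, 9, 10, 13 and 14, with 5 members called without rat 9 and 8 to 10 otherwise. Without rats 3, 9 and 13 together, both tools called 0 genes. The causes were not tested. The limma-trend fits on TPM shifted the median of all genes after i.v. ASC to -0.12 with log2(TPM + 1) and -0.13 with log2(TPM + 0.1), and the members' medians were then 2.02 and 3.18 in place of 5.10. These fits change the tool, the scale and the pseudocount together, and the cause was not tested. The members' log2 fold changes after i.v. ASC were above 0 in every fit that held them. Because the members were chosen as higher in this contrast, this sign and the counts of members called are a description and no support. No paired analysis was possible because no animal number occurs in more than 1 group. Low counts outside the i.v. ASC group limit how finely their levels can be ranked.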
